A study of Mus musculus with 12 samples.

Results

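The 10 genes described here encode core parts of inflammasomes and of pyroptosis, the lytic form of inflammatory cell death. They were chosen by symbol and by no measured value of their own, although earlier results of these data were known when the list was set: the sensors Nlrp3, Aim2 and Nlrc4, the adaptor Pycard, the caspases Casp1, Casp4 and Casp8, the pore protein Gsdmd, the cytokine Il18 and the regulator Txnip. All 10 were found among the 32688 genes of the count table, and all 10 were among the 18066 genes that passed the filter on low counts and were tested. RNA-seq was performed on RAW264.7 cells, a mouse macrophage line, in 12 libraries. Null cells and cells in which CRISPR had been used against both TFEB and TFE3 (TFEB/TFE3 DKO, called DKO here), related transcription factors of lysosomal and stress genes, were each examined as controls and after 8 h in 100 µM etoposide, a topoisomerase II poison that breaks DNA. Each of the 4 groups had 3 libraries. Controls are untreated in the labels and DMSO-treated in the study's methods, and the Null cells are called WT in the study. The labels and the study's methods describe 1 Null and 1 DKO line, so loss of TFEB and TFE3 and any other difference between these lines cannot be told apart. The study calls the 3 etoposide samples of each line independent, but neither its text nor the labels say whether the libraries of a group, controls included, came from separate cultures. The p-values measure the spread between these libraries, which may be technical in part.

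Inflammasomes are cytosolic complexes in which a sensor, often through the adaptor encoded by Pycard (ASC), recruits and activates caspase-1. Active caspase-1 matures interleukin-1β and interleukin-18 and cleaves gasdermin D, whose freed end forms pores in the plasma membrane. RAW264.7 cells are known to be deficient in ASC. All values below are RNA levels, and neither cleavage nor protein was measured.

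Totals ranged from 29837255 to 61809316 counts per library. Tfeb fell from 16.8 ± 0.286 CPM (counts scaled to the library size; SD, n = 3) in Null controls to 4.40 ± 1.12 CPM in DKO controls, and Tfe3 from 104.5 ± 14.8 to 37.8 ± 5.71 CPM, so the DKO controls held less RNA of both targeted genes, though not none. The DKO etoposide libraries held 4.34 ± 0.0894 CPM of Tfeb, 1.73-fold less than the 7.56 ± 0.427 CPM of Null etoposide (limma-trend adjusted p = 0.00179). Tfe3 there was 2.69-fold lower, with 37.7 ± 3.20 against 101.3 ± 2.02 CPM (limma-trend adjusted p = 1.88e-06). Tfeb fell 2.22-fold in Null cells with etoposide (limma-trend adjusted p = 8.99e-05) and had a log2 difference of 0.01 in DKO cells, and these responses differed by 1.16 (limma-trend adjusted p = 0.00499, called under 19 of 19 alternatives). For DKO etoposide, the 3 titles hold both RAW264.7 and MEFs (a fibroblast type) and lack the word DKO, whereas their genotype label gives DKO and their source label RAW264.7 alone. Summed over 8 macrophage markers these 3 libraries held 4585 to 4775 CPM, against 4313 to 4546 CPM in Null etoposide, while 8 fibroblast markers summed to 1.02 to 1.20 CPM against 1.91 to 2.04 CPM. The macrophage sums are led by Lyz2, Csf1r and Cd68, and so say little about the less abundant markers. Among the macrophage markers the lowest value was 4.72 CPM in DKO etoposide and 36.3 CPM in Null etoposide, in both of Fcgr1. DKO control replicate 1 stood apart most: its squared differences from replicates 2 and 3 were 57.1 and 70 times those of counting error, against 7.43 times between replicates 2 and 3. Null control replicates 1 and 3 (47.1 times) and DKO etoposide replicates 2 and 3 (28.3 times) were also far apart, and the other pairs lay between 3.6 and 18.2 times. Values without DKO control replicate 1 are given below for the 10 genes where leaving it out changed a count or a call. In bulk RNA, fewer cells with a transcript and less of it per cell cannot be told apart.

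The genes called went in both directions in each of the 4 comparisons of 2 groups. In Null cells 6 of the 10 genes passed the test after etoposide (limma-trend, adjusted p under 0.05), with Nlrc4, Nlrp3, Il18, Casp4 and Casp8 higher and Casp1 lower, where 39.6% of all tested genes were called (20.9% higher and 18.7% lower). In DKO cells 5 of 10 passed, Nlrc4, Il18 and Casp8 higher and Pycard and Aim2 lower, against 39.3% of all genes (20.2% higher and 19.1% lower). Between the lines, 4 of 10 differed in control cells, with Casp1, Nlrp3 and Il18 higher in DKO and Aim2 lower, against 19.3% of all genes (10.9% higher and 8.39% lower). After etoposide 6 of 10 differed, Casp1 and Il18 higher in DKO and Aim2, Casp4, Nlrp3 and Nlrc4 lower, against 33.6% of all genes (15.9% higher and 17.8% lower). This count came to 2 without any 1 of the Null etoposide libraries, where 4737 to 4923 of all genes were called in place of 6079. The count in controls came to 2 with no filter on low counts, where 3081 of all genes were called in place of 3490. The response itself differed between the lines for 1 gene, Nlrp3, lower in DKO, against 9.45% of all genes (3.07% higher and 6.39% lower). The comparisons within a line share their control libraries with those between lines.

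The median log2 difference of the 10 genes after etoposide was 0.37 in Null cells and 0.02 in DKO cells, against 0.03 in each for all tested genes. Between the lines it was 0.07 in controls and -0.31 after etoposide, against 0.00 and -0.01 for all genes.

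**Figure D1:**
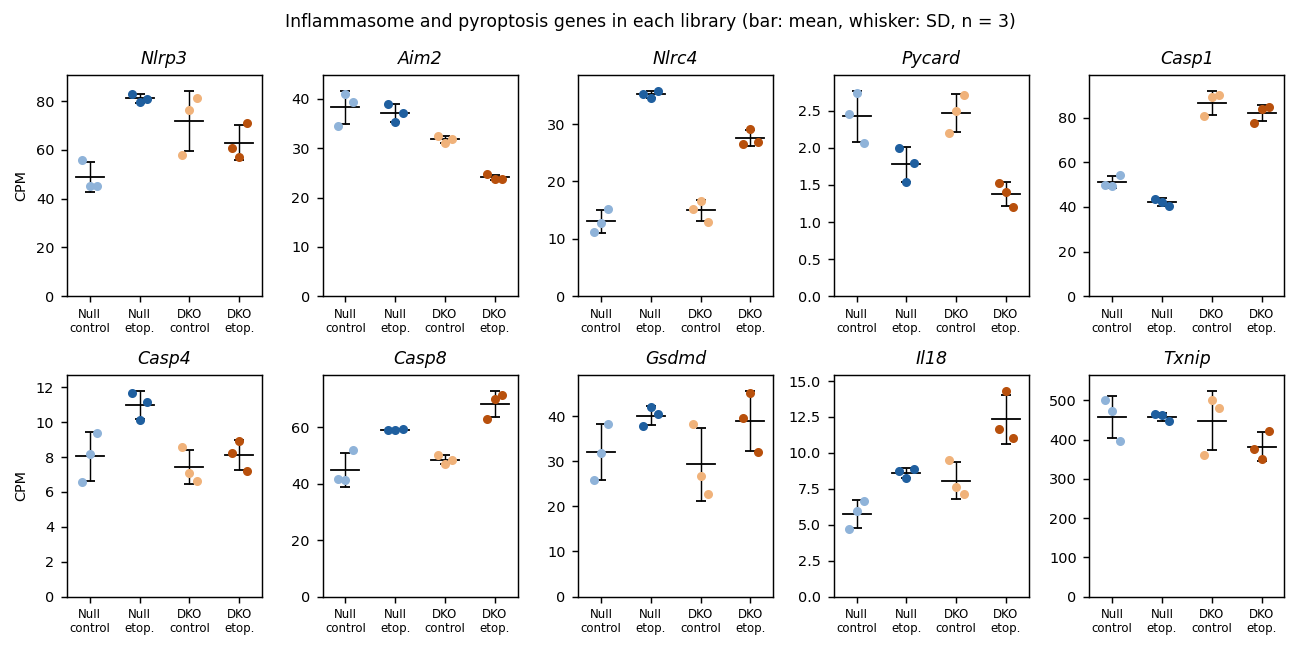
CPM of each gene (vertical axes from 0, a scale of their own in each panel) in every library of the 4 groups, as points, with the mean as a bar and the SD as whiskers (n = 3). Nlrp3 has its highest mean in Null etoposide, although DKO control replicate 3 reaches the same level, Casp1 is higher in all 6 DKO libraries than in any Null library, and Aim2 is lowest in DKO etoposide.

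The sensors start the complex. NLRP3 responds to potassium efflux and many kinds of membrane damage, AIM2 binds double-stranded DNA in the cytosol, and NLRC4 assembles when a NAIP protein has bound bacterial flagellin or secretion-system proteins. Nlrp3 (chr11:59541568-59566956, plus strand, GRCm38) was at 55.8, 45.3 and 45.2 CPM in the Null controls (replicates 1 to 3) and at 83.1, 79.6 and 80.9 CPM in Null etoposide. In DKO cells it was at 57.8, 76.4 and 81.3 CPM in controls and at 60.9, 57.1 and 70.9 CPM after etoposide. Every Null etoposide library lay above every Null control, whereas the DKO groups overlapped. Nlrp3 rose 1.67-fold in Null cells (log2 difference 0.74, SE 0.130, limma-trend adjusted p = 0.000612). Its log2 difference in DKO cells was -0.18 (95% interval -0.46 to 0.10, limma-trend adjusted p = 0.303). The responses differed by -0.92 on the log2 scale (SE 0.183, 95% interval -1.32 to -0.52, limma-trend adjusted p = 0.00651), and this difference was called under all 19 alternatives run, with values from -1.05 to -0.83. DKO controls were 1.46-fold above Null controls (log2 0.55, limma-trend adjusted p = 0.00916), and after etoposide the order was turned, with DKO 1.29-fold below Null (log2 -0.37, limma-trend adjusted p = 0.0432). The call in controls was lost without DKO control replicate 2 (0.48, limma-trend adjusted p = 0.0552) and with only the 2 groups fitted (0.54, limma-trend adjusted p = 0.077). The call after etoposide was lost on leaving out any library of that comparison except DKO etoposide replicate 3, with values from -0.39 without Null etoposide replicate 2 to -0.30 without DKO etoposide replicate 2. It was called under 6 of 14 alternatives, and was also lost with the size factors of DESeq2 (limma-trend adjusted p = 0.0545) and with no filter on low counts (limma-trend adjusted p = 0.0594). Without DKO control replicate 1, Nlrp3 fell by 0.32 on the log2 scale in DKO cells (limma-trend adjusted p = 0.0306).

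Aim2 (chr1:173350879-173466040, plus strand) was at 34.6, 41.0 and 39.3 CPM in Null controls and at 39.0, 35.3 and 37.1 CPM in Null etoposide. The DKO values were 32.5, 31.0 and 31.8 CPM in controls and 24.7, 23.9 and 23.7 CPM after etoposide. The Null groups overlapped, and each DKO group lay below the Null group of the same treatment. Aim2 fell 1.32-fold in DKO cells (log2 difference -0.40, SE 0.0771, limma-trend adjusted p = 0.00128), with -0.04 in Null cells (95% interval -0.21 to 0.13). The difference between the responses was -0.36 (95% interval -0.60 to -0.12) and missed the threshold (limma-trend adjusted p = 0.0641). After etoposide DKO cells held 1.54-fold less Aim2 than Null cells (log2 -0.62, limma-trend adjusted p = 4.78e-05), which was called under all 14 alternatives. In controls the difference was smaller (log2 -0.26, limma-trend adjusted p = 0.0298). It missed the threshold without Null control replicate 2 (-0.21) or 3 (-0.24), or without DKO control replicate 2 (-0.26) or 3 (-0.26).

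Nlrc4 (chr17:74425438-74459142, minus strand) showed the largest rise of the 10 genes in both lines. It was at 11.2, 12.7 and 15.2 CPM in Null controls and at 35.3, 34.5 and 35.7 CPM after etoposide. The DKO libraries gave 15.2, 16.7 and 13.0 CPM in controls and 26.5, 29.2 and 26.9 CPM after etoposide. In each line all etoposide libraries lay above all controls. The rise was 2.71-fold in Null cells (log2 1.44, SE 0.116, limma-trend adjusted p = 1.11e-06) and 1.85-fold in DKO cells (log2 0.88, SE 0.116, limma-trend adjusted p = 6.52e-05). The responses differed by -0.56 (95% interval -0.92 to -0.20), just short of the threshold (limma-trend adjusted p = 0.0557). It passed without Null control replicate 3 (-0.67) or DKO control replicate 3 (-0.65), and by DESeq2 (-0.54, adjusted p = 0.0148). DKO cells were at 1.28-fold less than Null cells after etoposide (log2 -0.35, limma-trend adjusted p = 0.0336). This call was lost on leaving out any library of the comparison except DKO etoposide replicate 2, with values from -0.37 without Null etoposide replicate 2 to -0.32 without DKO etoposide replicate 1.

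Over the 12 libraries, the tested genes with the log2 CPM pattern nearest to that of Nlrc4, each centred at its own mean, were Lzic, Traf1 and Ikbip, with root mean square differences of 0.112, 0.117 and 0.124. The 12 libraries fall into 4 groups and are not independent points.

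Pycard encodes ASC, the adaptor whose pyrin and CARD domains join NLRP3 and AIM2 to caspase-1. Pycard (chr7:127989708-127993867, minus strand) had between 73 and 139 counts in each library, the fewest of the 10 genes. It was at 2.46, 2.75 and 2.06 CPM in Null controls and at 2.00, 1.53 and 1.79 CPM in Null etoposide. In DKO cells the values were 2.20, 2.50 and 2.71 CPM in controls and 1.53, 1.40 and 1.20 CPM after etoposide. Pycard RNA was low in all 12 libraries, and within each line the etoposide libraries lay below the controls. It fell 1.76-fold in DKO cells (log2 difference -0.82, SE 0.166, limma-trend adjusted p = 0.00178). In Null cells the difference was -0.43 (95% interval -0.80 to -0.07) and missed the threshold (limma-trend adjusted p = 0.0557). It passed without Null control replicate 3 (-0.54) or Null etoposide replicate 1 (-0.53), and by DESeq2 (-0.45, adjusted p = 0.0445). The responses were not shown to differ (-0.38, 95% interval -0.90 to 0.13). A gene on the opposite strand, Gm45205, shares exon sequence with Pycard. It could supply 5.67% of the Pycard counts if its own counts lay evenly along its exons, and more if they did not.

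Caspase-1 is the protease of the canonical inflammasome, and Casp4 encodes the mouse caspase also known as caspase-11, which binds cytosolic lipopolysaccharide and cleaves gasdermin D. The genes are neighbours on chromosome 9, with 1562 bases between the end of Casp1 (chr9:5298517-5307265, plus strand) and the start of Casp4 (chr9:5308828-5336783, plus strand). Casp1 was at 49.7, 49.5 and 54.2 CPM in Null controls and at 43.8, 42.2 and 40.3 CPM in Null etoposide. In DKO cells it was at 80.5, 89.2 and 90.2 CPM in controls and at 77.7, 83.7 and 84.7 CPM after etoposide. All 6 DKO libraries lay above all 6 Null libraries. Casp1 was 1.69-fold higher in DKO controls (log2 0.76, SE 0.0728, limma-trend adjusted p = 8.14e-06) and 1.95-fold higher in DKO after etoposide (log2 0.96, limma-trend adjusted p = 5.86e-07), and both differences were called under all 14 alternatives run on each. Etoposide lowered it 1.21-fold in Null cells (log2 -0.28, limma-trend adjusted p = 0.0085), with -0.08 in DKO cells (95% interval -0.24 to 0.08). The difference between the responses was 0.20 (95% interval -0.02 to 0.43, limma-trend adjusted p = 0.299).

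Casp4 did not follow its neighbour. It was at 6.55, 8.18 and 9.38 CPM in Null controls and at 11.7, 10.1 and 11.1 CPM in Null etoposide. The DKO values were 8.55, 7.11 and 6.65 CPM in controls and 8.21, 8.90 and 7.18 CPM after etoposide. The Null etoposide libraries were above those of the other groups, which overlapped. Casp4 rose 1.37-fold in Null cells (log2 0.46, SE 0.145, limma-trend adjusted p = 0.0243), with 0.13 in DKO cells (95% interval -0.19 to 0.44). The call in Null cells was lost without Null control replicate 1 (0.32) or 2 (0.48), or without Null etoposide replicate 1 (0.40) or 3 (0.45). After etoposide DKO cells were 1.35-fold lower (log2 -0.44, limma-trend adjusted p = 0.035), a call lost on leaving out any library of that comparison except DKO etoposide replicate 2, with values from -0.50 without Null etoposide replicate 2 to -0.35 without DKO etoposide replicate 3. The responses were not shown to differ (-0.33, 95% interval -0.78 to 0.11).

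The tested genes with the pattern nearest to that of Casp1 were Senp8, Gm16759 and Pias1, with root mean square log2 differences of 0.0852, 0.0892 and 0.104 over the 12 libraries.

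TFEB and TFE3 are known to bind the E-box CACGTG, and the related M-box core CATGTG is bound by factors of the same family. Promoters of 300 bases (250 before the gene start and 50 from it, RefSeq, GRCm38.p6) were found for 9 of the 10 genes, in 11 windows, since Nlrp3 and Casp4 have 2 starts each. Gsdmd had none. CACGTG, searched on both strands, was in the Casp1 window alone, and is in 7.15% of the 32851 promoters of the table. CATGTG was in the windows of Nlrc4, with 2 matches, and Pycard, with 1, against 14.2% of all promoters. The core of the interferon-stimulated response element, GAAA repeated after 2 bases of any kind, was in none of the 11 windows, against 3.44% of all promoters. The Casp1 window (chr9:5298267-5298566, plus strand) and the Nlrc4 window (chr17:74459059-74459358, minus strand) are shown because they hold these motifs and belong to the gene with the largest difference between the lines among the 10 and the gene with the largest rise after etoposide. Capitals mark the matches, from -137 to -132 relative to the start in Casp1, and from -249 to -244 and -152 to -147 in Nlrc4, where the second is read on the other strand.
Casp1 promoter: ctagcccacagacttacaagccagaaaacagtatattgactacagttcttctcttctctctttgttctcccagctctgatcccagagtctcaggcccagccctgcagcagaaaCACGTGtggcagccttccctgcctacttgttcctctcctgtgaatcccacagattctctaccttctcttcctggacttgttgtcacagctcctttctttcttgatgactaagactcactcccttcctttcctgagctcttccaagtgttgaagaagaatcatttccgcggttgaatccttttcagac
Nlrc4 promoter: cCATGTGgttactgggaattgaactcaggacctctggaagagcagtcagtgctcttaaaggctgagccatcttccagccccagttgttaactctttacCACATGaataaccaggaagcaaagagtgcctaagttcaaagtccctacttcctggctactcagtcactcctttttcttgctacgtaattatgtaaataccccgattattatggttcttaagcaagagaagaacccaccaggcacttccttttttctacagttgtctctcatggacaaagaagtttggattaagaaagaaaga
A match describes letters in the sequence and not a bound site, and no binding data were used.

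Caspase-8 starts death-receptor apoptosis, restrains necroptosis and can cleave gasdermin D. Casp8 (chr1:58795374-58847503, plus strand) was at 41.6, 41.4 and 51.9 CPM in Null controls and at 59.1, 59.1 and 59.3 CPM in Null etoposide. In DKO cells it was at 50.2, 47.2 and 48.3 CPM in controls and at 63.2, 70.1 and 71.7 CPM after etoposide. Etoposide libraries lay above controls in both lines. Casp8 rose 1.32-fold in Null cells (log2 0.40, SE 0.0899, limma-trend adjusted p = 0.00331) and 1.4-fold in DKO cells (log2 0.49, SE 0.0899, limma-trend adjusted p = 0.000891). The responses differed by 0.09 (95% interval -0.19 to 0.36). DKO cells were at 1.15-fold the Null level after etoposide (log2 0.20, 95% interval 0.01 to 0.40), which was not called (limma-trend adjusted p = 0.103).

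Gsdmd (chr15:75862327-75867408, plus strand) encodes the pore protein that executes pyroptosis. It was at 25.8, 31.8 and 38.3 CPM in Null controls and at 37.8, 42.1 and 40.5 CPM in Null etoposide. The DKO libraries gave 38.2, 26.8 and 22.8 CPM in controls and 39.6, 45.1 and 32.0 CPM after etoposide. The spread within groups was wide, and every pair of groups compared overlapped. The log2 difference after etoposide was 0.34 in Null cells (95% interval -0.07 to 0.76, limma-trend adjusted p = 0.175) and 0.43 in DKO cells (95% interval 0.02 to 0.84, limma-trend adjusted p = 0.0928). In DKO cells the gene was called without DKO control replicate 1 (0.65, limma-trend adjusted p = 0.006) and without DKO etoposide replicate 3 (0.57, limma-trend adjusted p = 0.047). Between the lines the differences were -0.14 in controls (95% interval -0.56 to 0.27) and -0.06 after etoposide (95% interval -0.47 to 0.36).

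Interleukin-18 is made as an inactive precursor that caspase-1 cleaves. Il18 (chr9:50554827-50581840, plus strand) was at 4.70, 5.96 and 6.62 CPM in Null controls and at 8.73, 8.22 and 8.88 CPM in Null etoposide. In DKO cells it was at 9.50, 7.59 and 7.11 CPM in controls and at 11.7, 14.3 and 11.02 CPM after etoposide. Il18 was the only one of the 10 genes called higher in all 4 comparisons of 2 groups, and in none of them did the groups overlap. It rose 1.5-fold in Null cells (log2 0.59, SE 0.151, limma-trend adjusted p = 0.00791) and 1.53-fold in DKO cells (log2 0.61, SE 0.151, limma-trend adjusted p = 0.00637), each called under all 14 alternatives. The responses differed by 0.02 (95% interval -0.44 to 0.49). DKO cells held 1.4-fold more in controls (log2 0.49, limma-trend adjusted p = 0.0406) and 1.42-fold more after etoposide (log2 0.51, limma-trend adjusted p = 0.0209). The control difference was lost without Null control replicate 1 (0.35) or 2 (0.52), or without DKO control replicate 1 (0.35) or 2 (0.51), and the difference after etoposide without Null etoposide replicate 1 (0.52), 2 (0.47) or 3 (0.53), or without DKO etoposide replicate 2 (0.40). The control difference was called under 6 of 14 alternatives, and was also lost when scaled by library size alone (0.40, limma-trend adjusted p = 0.094), with no filter (limma-trend adjusted p = 0.066) and with only the 2 groups fitted (limma-trend adjusted p = 0.149). The tested genes with the nearest pattern were Ip6k1, Lrrc51 and Rcn1, with root mean square log2 differences of 0.0757, 0.093 and 0.0959 over the 12 libraries.

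Txnip encodes thioredoxin-interacting protein, an arrestin-domain protein that binds thioredoxin, limits glucose uptake and has been described as a partner of NLRP3. Txnip (chr3:96557957-96561883, plus strand) was at 501.6, 471.8 and 396.8 CPM in Null controls and at 465.7, 461.8 and 446.2 CPM in Null etoposide. The DKO values were 361.7, 502.0 and 479.4 CPM in controls and 374.9, 349.8 and 421.9 CPM after etoposide. The Null groups overlapped, and after etoposide all DKO libraries lay below all Null libraries. No comparison of Txnip passed the test. Its log2 difference after etoposide was 0.01 in Null cells (95% interval -0.27 to 0.29) and -0.22 in DKO cells (95% interval -0.49 to 0.06), and DKO etoposide was at -0.26 relative to Null etoposide (95% interval -0.54 to 0.01). Without DKO control replicate 1, Txnip fell by 0.36 on the log2 scale in DKO cells (limma-trend adjusted p = 0.0142). The opposite-strand gene Gm15441 overlaps Txnip. It could supply 9.23% of the Txnip counts if its own counts lay evenly along its exons, and more if they did not.

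Without DKO control replicate 1, 8 of the 10 genes were called in DKO cells after etoposide in place of 5, since Nlrp3, Gsdmd and Txnip joined them, 3 differed between the controls of the lines in place of 4, and Nlrp3 stayed the 1 gene whose response differed. Over all genes the calls rose as well without this library, from 7108 to 7895 in DKO cells after etoposide and from 3490 to 4721 between the controls.

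**Figure D2:**
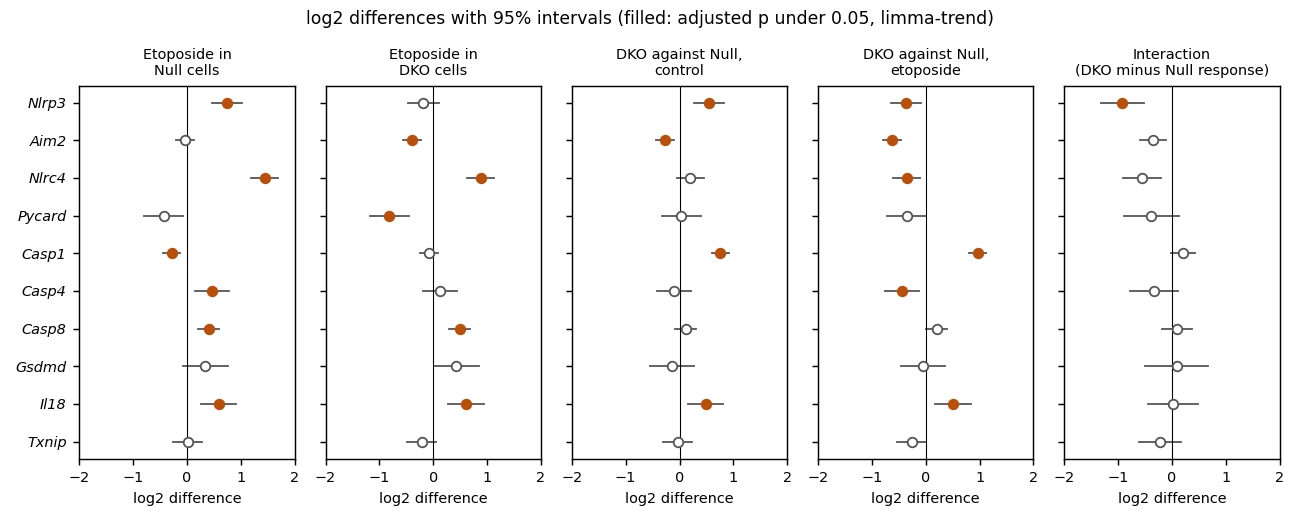
log2 difference (horizontal axes) of each gene in the 5 comparisons, with 95% intervals as lines, and filled points where the limma-trend adjusted p was under 0.05. In the last panel Nlrp3, at -0.92, is the only filled point, while Casp1 is filled on the right of 0 in both comparisons of the lines.

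Levels of different genes were compared as CPM per kilobase of exon, with the union of all annotated exons of a gene as its length. In Null controls Txnip led at 146.2 ± 17.3 CPM per kb (SD, n = 3), followed by Casp1 at 34.2 ± 1.80. Casp8 at 15.5, Gsdmd at 13.5, Nlrp3 at 12.02 and Aim2 at 10.9 CPM per kb came next, and the ranges of neighbours in this stretch overlapped. Below them were Il18 at 5.58, Nlrc4 at 2.71 and Casp4 at 2.17 CPM per kb, of which the last pair overlapped. Pycard was lowest at 0.638 ± 0.0905 CPM per kb, and its range was separate from that of the next gene up in all 4 groups. Its union of exons, 3800 bases, covers most of the span of its gene. A shorter length would raise its value, and its place by another length was not tested. Txnip and Casp1 were first and second in every group. In DKO etoposide Il18, at 11.96 CPM per kb, stood above Aim2, at 6.88 CPM per kb, the reverse of their order in the other groups, although their ranges overlapped in DKO controls. Nlrc4 reached 7.32 CPM per kb in Null etoposide and 5.73 CPM per kb in DKO etoposide.

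**Figure D3:**
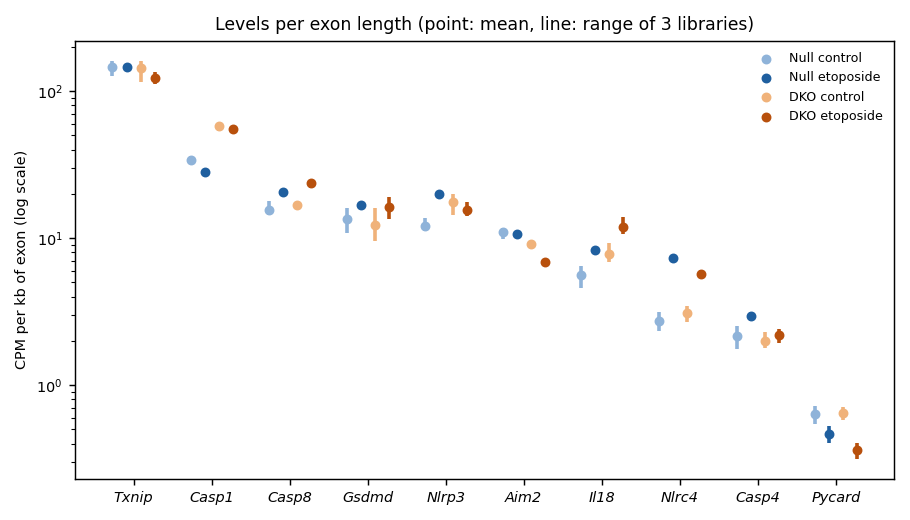
Mean CPM per kb of exon (union of all annotated exons, log axis) of the 10 genes in the 4 groups. Genes are ordered by their level in Null controls, with lines for the range of the 3 libraries. Pycard is the lowest in every group, at 0.362 to 0.650 CPM per kb, and Txnip the highest, at 122.4 to 146.6 CPM per kb.

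A list of 38 other genes of the pathway, written from general knowledge of inflammasome signalling, places the 10 genes among their partners, and 33 of them were tested. After etoposide 13 were higher and 4 lower in Null cells (median log2 difference 0.22), where 20.9% of all tested genes were higher and 18.7% lower. In DKO cells 13 were higher and 5 lower (median 0.16), against 20.2% and 19.1% of all genes. Between the lines, 8 were higher and 5 lower in DKO controls (median 0.03), against 10.9% and 8.39% of all genes, and 10 were higher and 6 lower after etoposide (median 0.10), against 15.9% and 17.8%. For the difference between the responses 1 was called, against 9.45% of all genes.

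Of the 4 genes of cytokines and their antagonists, 3 rose after etoposide in each line, where 20.9% of all tested genes in Null and 20.2% in DKO cells were higher, and Il1b and Il1a had the largest log2 differences of the list. Il18bp, which encodes the interleukin-18 binding protein, was not called (log2 difference -0.34 in Null and -0.62 in DKO cells, limma-trend adjusted p = 0.373 and 0.104). Numa1 overlaps Il18bp on the opposite strand. It could supply 18.9% of the Il18bp counts if its own counts lay evenly along its exons, and more if they did not. Il1b, the precursor of interleukin-1β, was at 0.130, 0.323 and 0.763 CPM in Null controls and at 18.7, 17.1 and 17.9 CPM in Null etoposide. In DKO cells it went from 0.169, 0.287 and 0.183 CPM to 43.0, 52.0 and 46.5 CPM. The controls held 4 to 37 counts of Il1b, and every etoposide library stood far above them. Il1b rose by 5.52 on the log2 scale in Null cells (limma-trend adjusted p = 3.31e-07) and by 7.46 in DKO cells (limma-trend adjusted p = 1.37e-08), and after etoposide it was 2.62-fold higher in DKO (limma-trend adjusted p = 0.015). The responses differed by 1.93 (95% interval 0.74 to 3.13, limma-trend adjusted p = 0.0451). This call was made under 7 of 19 alternatives and was lost on leaving out 9 of the 12 libraries, all but Null control replicates 1 and 3 and DKO control replicate 2 (1.40 to 2.46 over the 12 fits that each left out 1 library). Il1a, which encodes interleukin-1α, rose in both lines, with 0.136 ± 0.0315 CPM before and 2.95 ± 0.501 CPM after etoposide in Null, and 0.0732 ± 0.0653 and 5.20 ± 0.348 CPM in DKO. Il1rn, which encodes the receptor antagonist, also rose in both, with 1.05 ± 0.338 CPM before and 1.85 ± 0.433 CPM after etoposide in Null, and 2.21 ± 0.718 and 7.54 ± 1.38 CPM in DKO. The call in Null cells was made under 9 of 14 alternatives and lost without Null control replicate 1 or 3 or Null etoposide replicate 1 or 3 (0.59 to 0.80). It was 4-fold higher in DKO after etoposide (limma-trend adjusted p = 0.0001).

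Among the 9 tested genes of other sensors, 5 were called higher after etoposide in Null cells and 6 in DKO cells (limma-trend), where 20.9% and 20.2% of all tested genes were higher. One of the 5, Naip2 (log2 difference 0.22, limma-trend adjusted p = 0.0464), was called under 5 of 14 alternatives, and of the 6 fits that each left out 1 library only in that without Null control replicate 3 (0.28), with 0.14 to 0.25 in the others. In the DKO line 1 was higher and 5 lower in controls, against 10.9% and 8.39% of all genes, and 1 higher and 4 lower after etoposide, against 15.9% and 17.8%. The last counts rest in part on calls near the threshold: Mefv and Zbp1 were called under 9 of 14 alternatives each, Naip6 under 11 and Ifi204 under 12. Without Null etoposide replicate 3, Mefv (limma-trend adjusted p = 0.0732), Zbp1 (0.0838) and Naip6 (0.0597) were lost, while Naip5 and Ifi204 stayed lower in DKO. In that fit 4737 of all genes were called in place of 6079. Sensors not called in the main fit were not followed there. Zbp1, a sensor of Z-form nucleic acids, was at 0.287 ± 0.127 CPM in Null controls and 1.04 ± 0.187 CPM after etoposide, and at 0.0281 ± 0.0270 and 0.456 ± 0.165 CPM in DKO cells. Ifi204, which encodes an interferon-inducible DNA-binding protein, was 2.84-fold lower in DKO controls (limma-trend adjusted p = 0.00302) and 2.06-fold lower after etoposide (limma-trend adjusted p = 0.0177, lost without Null etoposide replicate 1, with a log2 difference of -0.97, or DKO etoposide replicate 1, which moved it from -1.04 to -0.66). Mefv, which encodes pyrin, stayed under 1 CPM throughout, with 1, 0 and 0 counts in the Null controls, 18, 8 and 11 in Null etoposide, 6, 22 and 4 in DKO controls and 32, 39 and 31 in DKO etoposide.

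Of the 10 tested genes of assembly and regulation, 2 were higher and 2 lower after etoposide in each line, close to the shares over all tested genes (20.9% and 18.7% in Null, 20.2% and 19.1% in DKO cells). Nek7, which encodes a kinase that binds NLRP3 and is needed for its assembly, was at 137.2 ± 15.1 CPM before and 51.7 ± 3.02 CPM after etoposide in Null (2.64-fold lower, limma-trend adjusted p = 1.47e-05), and at 145.9 ± 30.9 and 62.6 ± 10.6 CPM in DKO (2.31-fold lower, limma-trend adjusted p = 4.63e-05). Nlrp3 and Nek7 RNA thus moved in opposite directions in Null cells. Panx1, a membrane channel gene, was 2.04-fold higher in DKO controls (limma-trend adjusted p = 0.000116) and 1.41-fold higher after etoposide (limma-trend adjusted p = 0.0122, lost without Null etoposide replicate 3, where it was 0.0577). Of the 5 tested effectors, Ninj1, whose protein ruptures the membrane late in lytic death, was at 17.3 ± 1.45 CPM in Null controls and 51.8 ± 7.46 CPM in DKO controls (2.97-fold, limma-trend adjusted p = 8.8e-07). After etoposide it was at 18.6 ± 1.37 and 55.7 ± 5.95 CPM (2.98-fold, limma-trend adjusted p = 5.17e-07), and its log2 difference after etoposide, 0.11 in each line, was not called (95% intervals -0.15 to 0.36 in Null and -0.15 to 0.37 in DKO cells). Like Casp1, Ninj1 therefore separated the lines under both treatments.

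**Figure D4:**
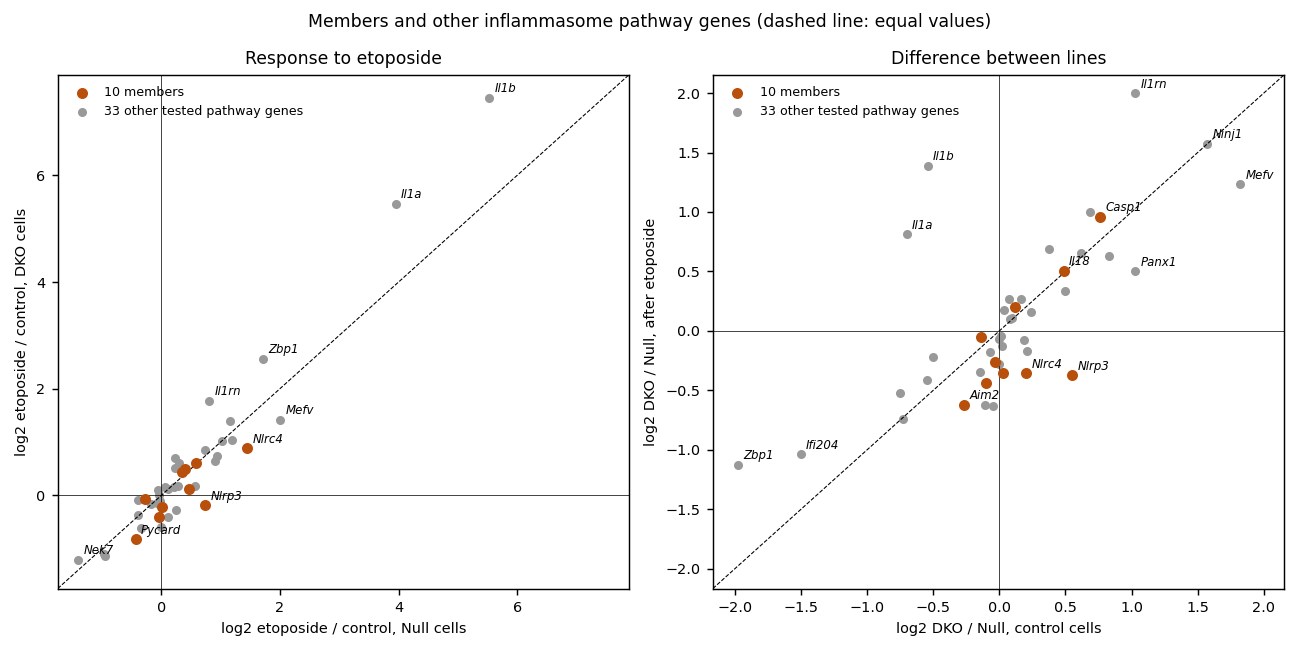
Each point is a gene, 10 members in orange and 33 other tested pathway genes in grey. The left panel sets the log2 etoposide response in DKO cells (vertical) against that in Null cells (horizontal), the right panel the log2 difference between the lines after etoposide (vertical) against that in controls (horizontal), and dashed lines mark equal values. Il1b and Il1a stand far above the other genes on the left, Nlrp3 lies below the line in both panels, and Casp1 and Ninj1 lie near the line on the right.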

How the data were processed

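RNA-seq was measured in 12 RAW264.7 libraries, grouped by their titles. According to the study's methods, ribosomal RNA was depleted, stranded libraries were sequenced as read pairs and aligned with HISAT2, and uniquely mapped pairs were counted with HTSeq on a GENCODE annotation. The submitters' processing notes instead name featureCounts, beside HISAT2 and mm10. Versions, annotation release and strand setting are not given in the sources used here. Gene counts were deposited raw, and the authors had neither normalized nor pooled them. Genes with near-identical copies lose counts to the unique-mapping filter, and without strand the reads of overlapping genes cannot be told apart. The labels name 2 RNA kits without assigning them, so a kit effect was not tested.

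Symbols, coordinates and exon lengths were taken from GENCODE M21 (GRCm38), which held 99.4% of the identifiers. filterByExpr of edgeR 4.0.16 kept 18066 genes with 99.96% of the counts, TMM scaling and log2 CPM with a prior count of 3 followed, and limma 3.58.1 (limma-trend, robust, R 4.3.3, all 12 libraries, a mean per group) gave two-sided tests with Benjamini-Hochberg adjustment over all genes tested, called under 0.05. limma-trend is the test the study's methods name. The text gives CPM on TMM-scaled library sizes, and fold changes on the log2 scale with the prior count. On simulated counts for etoposide against control in Null cells (17701 genes), limma-trend recovered 87% of genes changed by 1 on the log2 scale. It recovered 97.6% of those changed by 2, with 8 false calls in all. edgeR recovered 84.4% and 97.6% with 8 false calls, and DESeq2 94.8% and 100% with 34. Changed genes were drawn only above a minimum expected count, so recovery of genes near the floor was not tested.

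Alternatives were edgeR's quasi-likelihood test, DESeq2 1.42.0, other scalings, no filter, a prior count of 0.5, a replicate block, only the 2 groups compared and leaving out each library. The text names the 10 genes, up to 5 called pathway genes with the largest log2 difference in each comparison, Il1b, Tfeb, Tfe3, and, for members whose group means span at least 1 on the log2 scale, the 3 genes of nearest pattern. Outside this rule it names Naip2, Naip5, Naip6, Il18bp, some macrophage markers, overlapping genes and the genes under other observations. Members and lists were chosen with earlier results of these data known.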

Additional observations from a re-analysis of the deposited data

Results flagged for a closer look

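The etoposide response of Nlrp3 differed between the lines. The difference (DKO minus Null) was -0.92 on the log2 scale by the interaction term of the limma-trend fit (adjusted p = 0.00651), with Nlrp3 at 48.8 ± 6.13 CPM in Null controls, 81.2 ± 1.75 CPM in Null etoposide, 71.8 ± 12.4 CPM in DKO controls and 62.9 ± 7.11 CPM in DKO etoposide (SD, n = 3). All 3 Null etoposide libraries were above the Null controls, while the DKO groups overlapped. With 3 libraries in a group, no single library was tested as an outlier.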

How the results depend on the processing

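No called gene among the 10 changed sign under any alternative run. The count of 6 in Null cells came to 5 with a replicate block, 7 by DESeq2 and 5 to 7 leaving out 1 library. Over all genes 7148 calls came to 6450, 7642 and 5900 to 7013 in these fits. The count called between the control groups was 4 and came to 2 with no filter on low counts, 2 with the replicate block, 1 with only the 2 groups fitted, and 1 to 3 leaving out 1 library. Over all genes 3490 calls came to 3081, 3009, 2031 and 2727 to 4721 in these fits. After etoposide the count between the lines was 6 and came to 3 with no filter, 3 with the replicate block, 5 with the size factors of DESeq2, 8 with only the 2 groups fitted, and 2 to 4 leaving out 1 library. Over all genes 6079 calls came to 5896, 5394, 6090, 8223 and 4737 to 5263 in these fits. In DKO cells the count of 5 ran from 5 to 8 leaving out 1 library, and that over all genes, 7108, from 5877 to 7895. For the difference between responses the count of 1 came to 3 by DESeq2, which added Aim2 and Nlrc4, and to 1 to 2 leaving out 1 library. Over all genes 1708 calls came to 2253 by DESeq2 and to 1203 to 2038 leaving out 1 library. The pathway count for that difference, 1, came to 0 with no filter, 0 at a prior count of 0.5, 0 with the replicate block, 2 by DESeq2, and 0 to 2 leaving out 1 library. Over all genes the calls were 1384 with no filter, 1640 at the prior count of 0.5 and 1310 with the block. Fitting only the 2 groups compared moved the count over all genes from 3490 to 2031 between controls, from 6079 to 8223 between the lines after etoposide, from 7108 to 5795 in DKO cells and from 7148 to 7234 in Null cells. Scaled by library size alone, all genes split as 1579 higher and 2057 lower between the controls, in place of 1974 and 1516. The causes were not tested.

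Values near 0 that were not called changed sign: Pycard between the controls with library size alone (-0.0514) and Txnip in Null cells by DESeq2 (-0.0043). Leaving out 1 library gave ranges across 0 in Null cells after etoposide for Txnip (-0.0875 to 0.0799) and Aim2 (-0.11 to 0.0089), between controls for Pycard (-0.0770 to 0.12), Casp4 (-0.24 to 0.0161), Gsdmd (-0.37 to 0.0206) and Txnip (-0.14 to 0.0939), between the lines after etoposide for Gsdmd (-0.16 to 0.0814), and between responses for Casp8 (-0.0231 to 0.17), Gsdmd (-0.0748 to 0.32) and Il18 (-0.0853 to 0.17). Fitted with the 2 groups alone, Casp8 and Txnip were called between the lines after etoposide (0.20 and -0.27). The replicate numbers share no origin in the labels. Same-numbered libraries correlated from -0.542 to 0.394 in their deviations over 18 pairs, and 0 of 12 libraries correlated best with their own number. With the block, Casp4 in Null cells was lost (adjusted p = 0.0522), as were Aim2 and Il18 between controls and Nlrp3, Nlrc4 and Casp4 between the lines after etoposide. Depth limits Pycard most, at 73 to 139 counts in a library.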

Other observations

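Some genes outside the naming rule were chosen after their values were seen. Ripk3 and Mlkl, the kinase and the pore-forming executor of necroptosis, rose in both lines. They belong to the 5 listed genes of the caspase-8 and necroptosis arm, of which 2 were higher and 1 lower in each line, against 20.9% and 18.7% of all genes in Null cells and 20.2% and 19.1% in DKO cells. Fadd, the adaptor of caspase-8, fell 1.93-fold in Null and 2.21-fold in DKO cells (limma-trend adjusted p = 0.00365 and 0.00102), and Ripk1 and Cflar were not called. Ripk3 was at 38.3 ± 2.59 CPM before and 73.4 ± 2.62 CPM after etoposide in Null (SD, n = 3), and at 67.9 ± 3.45 and 113.4 ± 5.55 CPM in DKO. Mlkl was at 9.69 ± 0.828 and 22.2 ± 0.954 CPM in Null, and at 13.7 ± 1.48 and 28.1 ± 0.841 CPM in DKO. Both were also higher in DKO than in Null cells, by 0.83 and 0.50 on the log2 scale in controls (limma-trend adjusted p = 3.95e-06 and 0.00224) and by 0.63 and 0.34 after etoposide (limma-trend adjusted p = 2.82e-05 and 0.0156). The Mlkl difference after etoposide was called under 12 of 14 alternatives.

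Naip5 and Naip6, whose proteins bind bacterial ligands and recruit NLRC4, rose by 1.02 and 0.73 on the log2 scale in Null cells and by 1.01 and 0.86 in DKO cells, and were lower in DKO than in Null controls by -0.73 and -0.55. The Naip genes are near-identical copies, so the split of reads among them is uncertain.

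Arrdc4, a relative of Txnip among the arrestin-domain genes, was called between the lines under both treatments, whereas Txnip was called under neither, although its DKO etoposide libraries all lay below those of Null etoposide and it was called there with only the 2 groups fitted (-0.27, limma-trend adjusted p = 0.0106). Arrdc4 was at 3.02 ± 0.403 CPM in Null controls, 4.68 ± 0.389 CPM in Null etoposide, 8.64 ± 0.328 CPM in DKO controls and 12.7 ± 0.362 CPM in DKO etoposide. DKO cells held 2.84-fold more in controls (limma-trend adjusted p = 9.35e-07) and 2.7-fold more after etoposide (limma-trend adjusted p = 8.97e-07).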
